A study of Mus musculus with 6 samples.

Results

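Transcripts of 27 genes of cholesterol biosynthesis and its control by the transcription factor SREBP2 were followed in BV2, an immortal line of murine microglia, with and without human apolipoprotein E4. The genes were chosen by name for their place in the pathway, out of 40202 listed genes, with earlier results of these data known. Of the 27, 26 had a mean of at least 10 normalised reads and were tested among 14079 genes that passed this filter. Insig1, which encodes a sterol-regulated anchor of SREBP2 in the endoplasmic reticulum, is listed at 0 in all 6 libraries and gave no value. A normalised read is a read count per gene divided by 1 scaling factor for its library.

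All samples were BV2 cells of C57BL/6 background, grown in serum-containing medium. The control group of 3 libraries was untreated, and the FL-ApoE4 group of 3 libraries received human full-length ApoE4 protein at 25 µg/ml for 5 h. Serum in the medium was common to both groups, and the labels do not state whether controls received the vehicle of the protein. A single cell line was used, and nothing in the labels says that replicates were separate cultures, so a p-value here reflects the spread of these libraries alone, and that spread may be technical.

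As background, cholesterol is built from acetyl-CoA through mevalonate, isoprenoid diphosphates, squalene and lanosterol, and the last part of the route removes methyl groups and moves double bonds on the sterol ring. Its genes are induced together when the endoplasmic reticulum runs low in sterol. The sensor protein SCAP then escorts SREBP2 to the Golgi, where a pair of proteases release the active factor, and INSIG proteins hold SCAP back when sterol is plentiful. Microglia and macrophages make cholesterol and also take it up in lipoproteins, of which ApoE is a protein component.

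Reads summed over all listed genes ranged from 45700128 to 54965393 per library. The lowest count of any of the 26 genes was 360 reads, in Tm7sf2. Of 14 microglia and macrophage markers 13 passed the filter, with P2ry12, a defining marker of resting microglia, listed at 0, and their summed level was 200090.0 to 203434 normalised reads in controls and 220553 to 229316 with FL-ApoE4. The part of that shift in the pathway values was not tested. Markers of astrocytes, neurons, oligodendrocytes, fibroblasts and T and B cells summed to at most 116 normalised reads per list and library, with Aqp4, Mobp, Lum and Cd3e at 0. Control replicate 1 and FL-ApoE4 replicate 1 stood apart within their groups. Over all genes tested, the median absolute log2 difference was 0.16 and 0.17 between control replicate 1 and the other controls, against 0.069 between those. The same measure was 0.13 and 0.13 for FL-ApoE4 replicate 1, against 0.067. The main results are therefore given with and without these libraries.

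The comparison asked how exposure to the full-length protein changed the transcripts of the pathway. Differences were small, with positive values for 18 of 20 enzymes and for 2 of 5 genes of SREBP2 control, and the difference between those sets was not tested. Of 26 genes, 21 had a positive log2 difference and 5 a negative one, where 50.3% of all genes tested were positive. The median log2 difference was 0.10 over the 26 genes and 0.0011 over all genes tested. Leaving out control replicate 1 moved the median of the 26 to 0.15, and leaving out control replicate 3 moved it to 0.054. The range ran from -0.20 for Insig2 to 0.33 for Mvd. In a cell culture measured in bulk, a change in the RNA of each cell and a change in the mix of cells cannot be told apart.

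No gene of the pathway passed the test with all 6 libraries. By limma, 0 of 26 had an adjusted p under 0.05, as had 0 of all 14079 genes (0%). At an unadjusted p under 0.05 there were 6 higher and 0 lower, where the background was 6.81% higher and 6.33% lower. With all libraries the edgeR quasi-likelihood test called 0 of the 26, against 0% of genes tested. DESeq2 also called 0 of the 26, against 2.85% of the genes to which it gave an adjusted p. Array quality weights in limma, which give less weight to variable libraries, called 6 higher, against 6.29% of genes tested. The authors' deposited table called 367 genes, as did that DESeq2 fit, and is not counted as a further test. In it 0 of the 26 had an adjusted p under 0.05, where 2.85% of genes did. The lowest deposited adjusted p was 0.0559 for Mvd, then 0.0975 for Stard4. All FL-ApoE4 libraries lay above all controls in 6 genes, Acat2, Mvk, Mvd, Nsdhl, Dhcr7 and Stard4, against 11.1% of genes tested. All lay below in 1, Ggps1, against 10.9%.

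**Figure D1:**
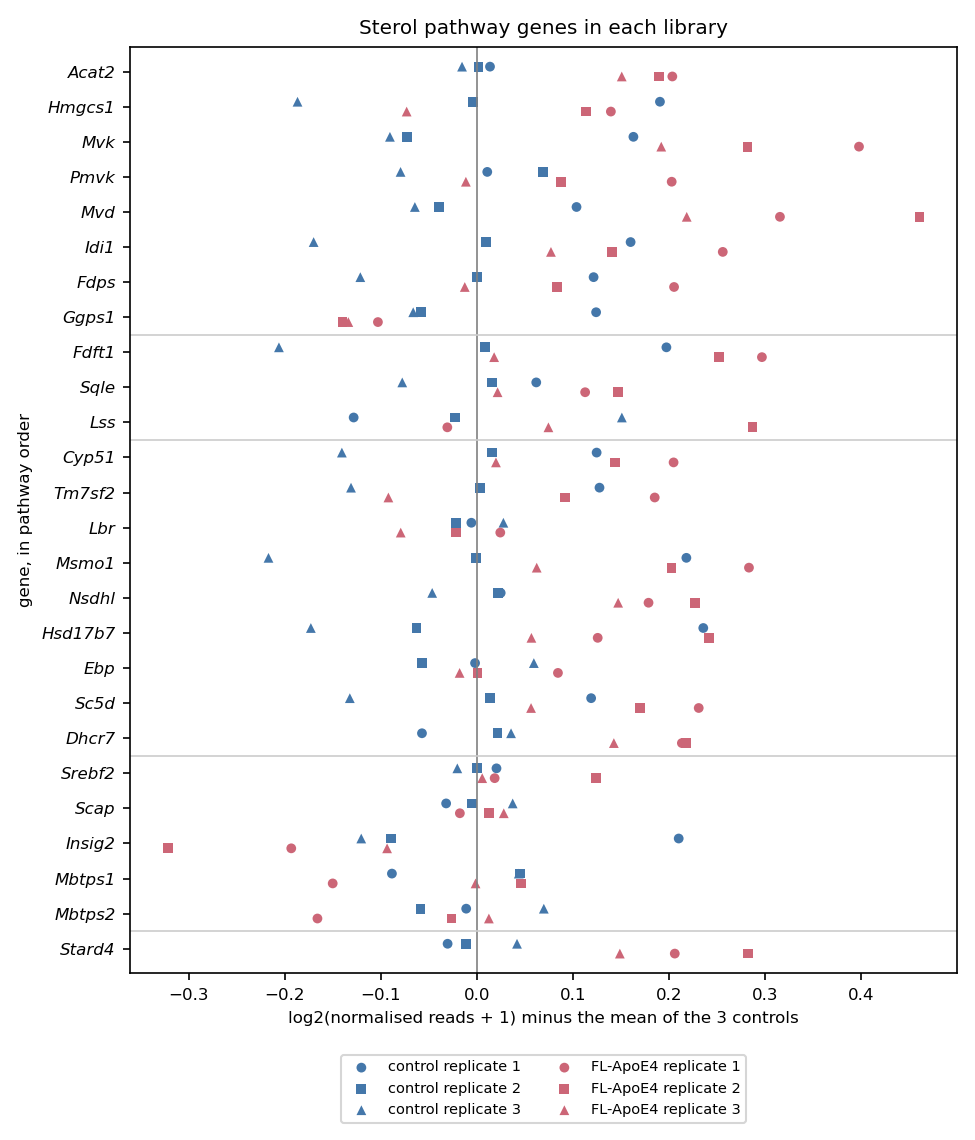
Each point is a library, placed by its log2(normalised reads + 1) minus the mean of the 3 controls (horizontal axis), for the 26 genes with values in pathway order (vertical axis); blue marks control and red FL-ApoE4, and marker shapes give the replicate. Red points lie wholly to the right of blue in Acat2, Mvk, Mvd, Nsdhl, Dhcr7 and Stard4, and wholly to the left in Ggps1.

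Without control replicate 1, Mvk and Mvd rose. Mvk had a log2 difference of 0.37 (limma adjusted p = 0.0320) and Mvd of 0.38 (limma adjusted p = 0.0394). These were 2 of 26 genes called higher, with 0 called lower, and the background was 2.93% higher and 1.69% lower. On recovered reads without that library, edgeR called 2 higher, against 3.01%, and DESeq2 4 higher, against 4.27%. Control replicates 2 and 3, which remain, are the most alike of the controls, so the spread may be understated. With control replicate 1 and FL-ApoE4 replicate 1 both left out, 8 genes were called higher and 0 lower, against a background of 7.02% and 5.53%. The 8 were Acat2, Mvk, Mvd, Msmo1, Nsdhl, Hsd17b7, Dhcr7 and Stard4, with limma adjusted p between 0.00637 and 0.0477. This second setting keeps the most alike pair of each group and was chosen after the values were seen.

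**Figure D2:**
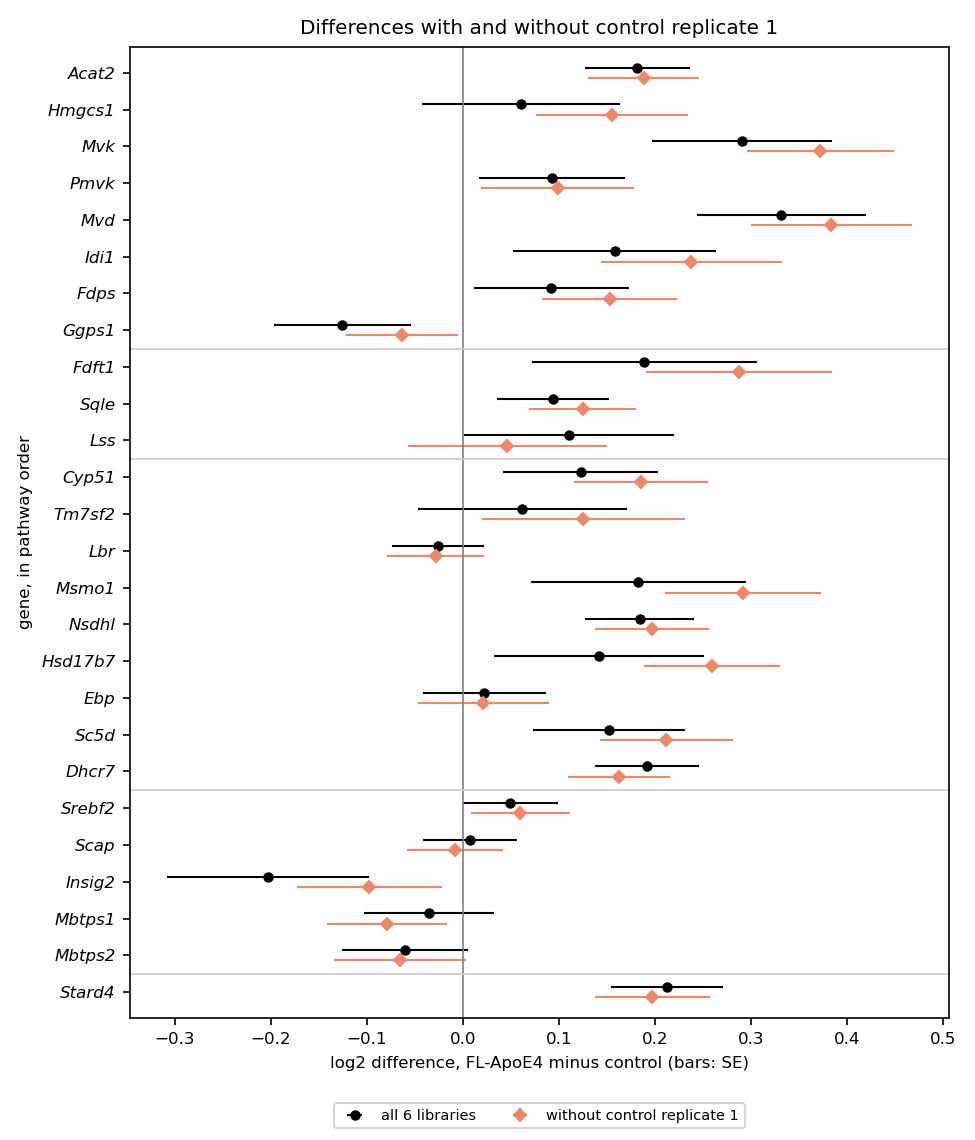
Log2 difference between FL-ApoE4 and control (horizontal axis; bars are SE) for the 26 genes in pathway order (vertical axis), from all 6 libraries (black circles) and without control replicate 1 (orange diamonds). Mvd and Mvk lie furthest to the right in both, and Insig2 moves from -0.20 to -0.10.

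Values per library are given in normalised reads. In the acetyl-CoA and mevalonate part, 7 of 8 genes had a positive log2 difference, with a median of 0.13. Acat2, the cytosolic thiolase that joins acetyl-CoA units, was at 1258, 1247 and 1232 in control replicates 1 to 3 and at 1435, 1421 and 1383 in FL-ApoE4 replicates 1 to 3. Every treated value exceeded every control, with a coefficient of variation of 1.01% in controls. Its log2 difference was 0.18 ± 0.055 (SE), with a limma adjusted p of 0.236. Hmgcs1, the cytosolic HMG-CoA synthase, was at 5456, 4768 and 4201 in control replicates 1 to 3 and at 5266, 5173 and 4545 in FL-ApoE4 replicates 1 to 3. Here the highest of all 6 libraries was a control, replicate 1, and the groups overlapped. The log2 difference was 0.060 ± 0.10 over all libraries and 0.16 without control replicate 1 (limma adjusted p = 0.869 and 0.339), and -0.033 without control replicate 3.

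The kinases and the decarboxylase that follow differed in size. Mvk, mevalonate kinase, was at 946, 803 and 793 in control replicates 1 to 3 and at 1113, 1027 and 965 in FL-ApoE4 replicates 1 to 3. Control replicate 1 was the nearest control to the treated values and lay just under the lowest of them. The log2 difference of Mvk was 0.29 ± 0.094 (SE), with a limma adjusted p of 0.258. Pmvk, phosphomevalonate kinase, ranged from 1346 to 1491 in controls and 1411 to 1636 with FL-ApoE4, with a log2 difference of 0.093 ± 0.076 (limma adjusted p = 0.660). Mvd, the decarboxylase that yields isopentenyl diphosphate, was at 766, 693 and 681 in control replicates 1 to 3 and at 887, 981 and 829 in FL-ApoE4 replicates 1 to 3. It had the highest log2 difference of the 26, 0.33 ± 0.088 (SE), with a 95% interval of 0.13 to 0.54 and a limma adjusted p of 0.204.

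Further along, Idi1, the isomerase of isopentenyl diphosphate, ranged from 383 to 481 in controls and 454 to 514 with FL-ApoE4. Fdps, farnesyl diphosphate synthase, ranged from 6503 to 7694 in controls and 7012 to 8154 with FL-ApoE4. The groups of both overlapped, with log2 differences of 0.16 ± 0.11 and 0.092 ± 0.081 (limma adjusted p = 0.579 and 0.690). Ggps1 makes geranylgeranyl diphosphate for protein prenylation, a branch that leaves the route to sterol, and was at 1413, 1245 and 1238 in control replicates 1 to 3 and at 1207, 1176 and 1181 in FL-ApoE4 replicates 1 to 3. All treated values lay below all controls, and control replicate 1 was the highest. Its log2 difference was -0.13 ± 0.071 with all libraries and -0.064 without control replicate 1 (limma adjusted p = 0.508 and 0.618). Ggps1 shares 257 exon bases with Arid4b on the opposite strand in GENCODE M21, and Arid4b was at 1504 ± 38.5 in controls and 1303 ± 73.8 with FL-ApoE4 (mean ± SD in normalised reads, n = 3 each). The strand setting of the counting is not given in the sources used here, so the part of Arid4b reads in the Ggps1 value was not tested.

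Promoter sequences are shown for genes of the pathway whose groups did not overlap and that have a single start region in the table, and for Hmgcs1, the 1 gene with a sterol regulatory element core. They come from RefSeq (build GRCm38.p6), run from 250 bases before to 50 bases after the transcription start, and are printed 5′ to 3′ on the gene's strand. Capitals mark the NF-Y box CCAAT, the Sp1 box GGGCGG, the E-box CACGTG and the sterol regulatory element core TCACNCCAC, each searched on both strands. Acat2 lies at chr17:12960676-12960975, minus strand, Hmgcs1 at chr13:119690101-119690400, plus strand, Mvk at chr5:114444019-114444318, plus strand, Mvd at chr8:122443373-122443672, minus strand, Ggps1 at chr13:14063439-14063738, minus strand, and Nsdhl at chrX:72918271-72918570, plus strand.
Acat2: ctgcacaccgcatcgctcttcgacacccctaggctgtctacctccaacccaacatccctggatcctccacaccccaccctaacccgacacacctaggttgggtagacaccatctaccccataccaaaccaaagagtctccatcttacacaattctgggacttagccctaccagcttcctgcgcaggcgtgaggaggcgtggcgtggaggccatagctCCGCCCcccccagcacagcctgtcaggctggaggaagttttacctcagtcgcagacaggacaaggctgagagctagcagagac
Hmgcs1: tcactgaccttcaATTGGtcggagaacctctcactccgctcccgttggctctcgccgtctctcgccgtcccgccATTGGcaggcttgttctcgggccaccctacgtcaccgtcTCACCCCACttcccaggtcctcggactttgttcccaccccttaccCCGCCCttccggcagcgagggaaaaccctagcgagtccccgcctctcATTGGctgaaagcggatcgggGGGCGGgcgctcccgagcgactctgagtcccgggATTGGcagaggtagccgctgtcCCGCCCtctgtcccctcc
Mvk: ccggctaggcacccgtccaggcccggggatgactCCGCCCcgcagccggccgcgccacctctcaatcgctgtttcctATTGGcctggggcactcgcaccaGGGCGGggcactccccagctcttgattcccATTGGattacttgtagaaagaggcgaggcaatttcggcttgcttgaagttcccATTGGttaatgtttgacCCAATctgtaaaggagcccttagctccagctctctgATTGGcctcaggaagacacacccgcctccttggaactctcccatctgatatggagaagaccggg
Mvd: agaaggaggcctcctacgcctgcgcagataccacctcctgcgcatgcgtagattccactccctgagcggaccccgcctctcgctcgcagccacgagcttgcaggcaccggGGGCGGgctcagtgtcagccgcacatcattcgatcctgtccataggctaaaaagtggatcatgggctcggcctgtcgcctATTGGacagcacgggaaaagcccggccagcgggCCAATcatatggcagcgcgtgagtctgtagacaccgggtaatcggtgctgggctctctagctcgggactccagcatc
Ggps1: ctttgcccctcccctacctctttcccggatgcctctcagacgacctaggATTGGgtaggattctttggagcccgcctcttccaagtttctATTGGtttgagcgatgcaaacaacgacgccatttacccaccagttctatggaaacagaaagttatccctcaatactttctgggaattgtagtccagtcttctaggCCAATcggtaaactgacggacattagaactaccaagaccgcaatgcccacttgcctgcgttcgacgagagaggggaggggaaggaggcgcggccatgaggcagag
Nsdhl: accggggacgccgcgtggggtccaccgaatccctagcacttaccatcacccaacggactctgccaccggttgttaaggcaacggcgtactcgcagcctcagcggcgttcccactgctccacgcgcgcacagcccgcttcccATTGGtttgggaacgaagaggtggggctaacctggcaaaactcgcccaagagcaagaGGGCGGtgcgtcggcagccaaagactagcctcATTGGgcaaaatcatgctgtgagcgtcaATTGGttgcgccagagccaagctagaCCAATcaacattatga

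Most genes of the pathway held NF-Y and Sp1 boxes in these windows. A window was found for 23 of the 27 genes, and there was none for Fdps, Fdft1, Sqle and Stard4. CCAAT was present for 19 of 23 genes and GGGCGG for 20, where 41.1% and 38.2% of all 27025 genes in the table held them in a window. Those genes were counted whether or not they passed the expression filter. The windows of these genes had a median GC content of 61.3%, against 52.7% over all windows. The Mvk window held 5 NF-Y boxes, the Nsdhl window 4 and the Hmgcs1 window 4, while that of Acat2 held 0. TCACNCCAC was found for 1 of 23, Hmgcs1, at 137 bases before the start, against 1.44% of all genes, and the longer element, which has an A before the core and a C at its N, for 0, against 0.0999%. CACGTG was found for 5 of 23, against 8.09% of all genes. These are exact letter matches, so a sterol element that differs by 1 base was not counted. Windows with and without the NF-Y box, the Sp1 box and the E-box occur among the genes with non-overlapping groups. No window of those genes holds the sterol regulatory element core.

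In the squalene to lanosterol part all 3 genes had positive log2 differences and overlapping groups. Over all genes tested, 50.3% were positive, and groups stood apart in 11.1% on the higher side and 10.9% on the lower. Fdft1, squalene synthase, was at 2094, 1837 and 1583 in control replicates 1 to 3 and at 2243, 2175 and 1849 in FL-ApoE4 replicates 1 to 3. Both groups spread widely, with coefficients of variation of 13.9% and 10.1% against 2.26% from counting alone, and the log2 difference was 0.19 ± 0.12 (limma adjusted p = 0.545). Fdft1 shares 774 exon bases with Ctsb on the opposite strand, and Ctsb, a highly expressed lysosomal protease gene, was at 193941 ± 3908 in controls and 197228 ± 1163 with FL-ApoE4 (mean ± SD in normalised reads, n = 3 each). The value of Fdft1 is uncertain for that reason. Sqle, the squalene epoxidase that controls a slow step of the route, was at 8293, 8033 and 7529 in control replicates 1 to 3 and at 8591, 8796 and 8065 in FL-ApoE4 replicates 1 to 3, a log2 difference of 0.094 ± 0.058 (limma adjusted p = 0.545). Lss, the cyclase that forms lanosterol, ordered the controls in the opposite way to Fdft1 and Sqle. It was at 651, 700.0 and 789.6 in control replicates 1 to 3 and at 696, 868 and 749 in FL-ApoE4 replicates 1 to 3, so that control replicate 1 was the lowest of the 6, and its log2 difference of 0.11 ± 0.11 became 0.046 without that library (limma adjusted p = 0.737 and 0.848).

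In the post-lanosterol part, 8 of 9 genes had a positive log2 difference, with a median of 0.14. The genes for demethylation at the fourth carbon of the ring were among them. Msmo1, the methylsterol oxidase, was at 7204, 6188 and 5328 in control replicates 1 to 3 and at 7536, 7126 and 6466 in FL-ApoE4 replicates 1 to 3. Its controls differed from each other more than the groups did, with a coefficient of variation of 15.0% against 1.23% from counting alone. The log2 difference was 0.18 ± 0.11 over all libraries and 0.29 without control replicate 1 (limma adjusted p = 0.539 and 0.0887).

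Nsdhl, the dehydrogenase of the same complex of steps, was at 1501, 1498 and 1428 in control replicates 1 to 3 and at 1669.9, 1727 and 1634 in FL-ApoE4 replicates 1 to 3. The groups stood apart with small spread, a log2 difference of 0.18 ± 0.057 and a limma adjusted p of 0.242. Hsd17b7, the ketoreductase that completes each round, was at 2341, 1904 and 1764 in control replicates 1 to 3 and at 2169.7, 2351 and 2068 in FL-ApoE4 replicates 1 to 3. Control replicate 1 was close to the highest treated library, and the log2 difference of 0.14 ± 0.11 became 0.26 without it (limma adjusted p = 0.638 and 0.0814).

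Dhcr7, which performs the last reduction to cholesterol in 1 arm of the route, was at 2403, 2538 and 2563 in control replicates 1 to 3 and at 2899, 2908 and 2760.4 in FL-ApoE4 replicates 1 to 3. This gene was among those with groups apart, and control replicate 1 was its lowest library, in contrast to Msmo1 and Hsd17b7. Its log2 difference was 0.19 ± 0.054 with all libraries and 0.16 without that control (limma adjusted p = 0.222 and 0.135). Cyp51, the lanosterol demethylase, ranged from 5891 to 7079.8 in controls and 6584 to 7484 with FL-ApoE4. Sc5d, which introduces a double bond just before the Dhcr7 step, ranged from 3202 to 3811 in controls and 3649 to 4118 with FL-ApoE4. They had log2 differences of 0.12 ± 0.081 and 0.15 ± 0.079 and overlapping groups (limma adjusted p = 0.570 and 0.463). Ebp, the sterol isomerase, ranged from 1151 to 1248 in controls and 1182 to 1269 with FL-ApoE4, with a log2 difference of 0.022 and a 95% interval of -0.13 to 0.17.

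Lbr and Tm7sf2 encode a pair of sterol reductases for the same step, Lbr being also a receptor of the inner nuclear membrane that binds lamin B. Lbr was at 8451, 8357 and 8649 in control replicates 1 to 3 and at 8629.6, 8357 and 8031 in FL-ApoE4 replicates 1 to 3, with a 95% interval of -0.14 to 0.086 around a log2 difference of -0.026. Tm7sf2 ranged from 343 to 411 in controls and 352 to 427 with FL-ApoE4, with a log2 difference of 0.062 ± 0.11 (limma adjusted p = 0.875). Per kb of transcript, Lbr exceeded Tm7sf2 by 8.63 to 10.6 times in controls and 8.46 to 9.55 times with FL-ApoE4. Tm7sf2 shares 532 exon bases with Vps51 on the same strand, so its value is uncertain. Fdps shares 1124 exon bases with Gm43738 on the same strand, so its value is uncertain too, although Gm43738 is not among the listed genes. Mbtps2 shares 2867 of its 10105 exon bases with Yy2, also on the same strand and listed at 0 in all 6 libraries, so the value of Mbtps2 is uncertain as well. Lbr shares 440 exon bases with Dnah14 and Cyp51 166 with Akap9, both on the opposite strand. Also on the opposite strand, Scap shares 985 with 5830462I19Rik, Hmgcs1 557 with Gm48342, Lss 381 with 4930483K19Rik and Idi1 323 with Gm48574. Lbr shares a further 69 with Gm26004 on the same strand.

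The genes of SREBP2 control had 2 positive and 3 negative log2 differences among the 5 measured, with a median of -0.035. All had overlapping groups, where 11.1% of all genes tested stood apart on the higher side and 10.9% on the lower. Srebf2, which encodes SREBP2 and is among the genes it activates, was at 13713, 13519.7 and 13331 in control replicates 1 to 3 and at 13695, 14734 and 13573 in FL-ApoE4 replicates 1 to 3. FL-ApoE4 replicate 2 was above the other 5 libraries, which lay close together. The log2 difference was 0.049, with a 95% interval of -0.066 to 0.16 (limma adjusted p = 0.741). Scap, the escort and sterol sensor, ranged from 3114 to 3267 in controls and 3145 to 3246 with FL-ApoE4 and had a log2 difference of 0.0078 with a 95% interval of -0.11 to 0.12. Mbtps1, the site-1 protease, ranged from 8262 to 9062 in controls and 7917 to 9070.2 with FL-ApoE4, and Mbtps2, the site-2 protease, from 3700.1 to 4044 in controls and 3435 to 3887 with FL-ApoE4. Their log2 differences were -0.035 and -0.060, with 95% intervals of -0.19 to 0.12 and -0.21 to 0.093.

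Insig2, a retention protein for SCAP whose gene is known not to follow SREBP2 in the way Insig1 does, was at 1847, 1501 and 1469 in control replicates 1 to 3 and at 1397, 1277 and 1497 in FL-ApoE4 replicates 1 to 3. Control replicate 1 was far above the rest, and the other controls lay near the treated values. At -0.20 ± 0.10, its log2 difference was the lowest of the 26 genes, and it was -0.10 without control replicate 1 (limma adjusted p = 0.462 and 0.540). With Insig1 listed at 0 in every library, the more sterol-responsive of the INSIG genes could not be followed.

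Stard4, which encodes a soluble protein that carries cholesterol between membranes and is a known SREBP2 target, was at 2046, 2073 and 2151 in control replicates 1 to 3 and at 2411, 2542 and 2317 in FL-ApoE4 replicates 1 to 3. Its controls had a coefficient of variation of 2.61%, and all treated libraries were higher. The log2 difference was 0.21 ± 0.058 (SE) over all libraries and 0.20 without control replicate 1 (limma adjusted p = 0.209 and 0.112).

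Levels along the pathway were uneven. Per kb of transcript (lengths from GENCODE M21, the transcript with the longest coding part), Fdps was the most abundant of the 26 in controls at 5130.0 ± 431 normalised reads per kb (mean ± SD, n = 3), followed by Msmo1 at 3053 ± 459 and Sqle at 2883 ± 141, and those last 2 did not differ beyond their spread. Srebf2 was next at 2663 ± 37.6. The level of Fdps carries the uncertainty of its overlap with Gm43738. The lowest were Idi1 at 143 ± 16.3, Lss at 153 ± 15.1 and Tm7sf2 at 256 ± 23.0 normalised reads per kb, of which Idi1 and Lss did not differ beyond their spread. Sqle thus exceeded Lss, which acts directly after it, by 16.1 to 21.6 times per kb over the 6 libraries.

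**Figure D3:**
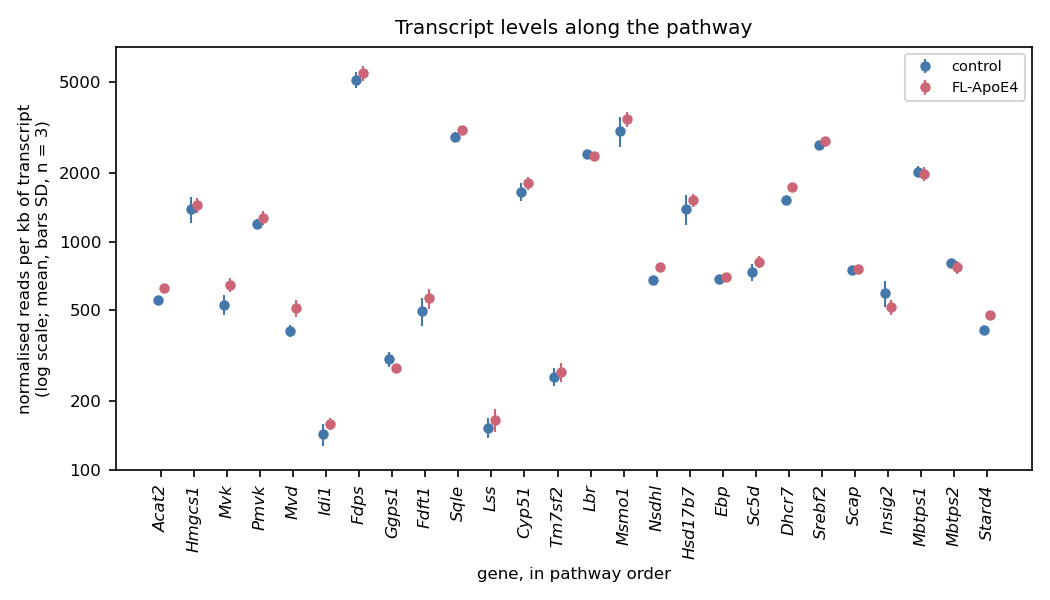
Normalised reads per kb of transcript on a log scale (vertical axis) for the 26 genes in pathway order (horizontal axis), as mean and SD of 3 control libraries (blue) and 3 FL-ApoE4 libraries (red). The genes span from 143 per kb for Idi1 to 5130.0 for Fdps in controls, and the groups lie close together at every gene.

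Most of the 20 enzymes ordered the libraries of a group alike. Control replicate 1 was the highest control in 15 of 20 enzymes and control replicate 3 the lowest in 16, where 40.9% and 29.5% of all genes tested had those positions. In the treated group replicate 1 was the highest in 14 and replicate 3 the lowest in 18, against 38.7% and 30.4%. The median log2 deviation of the enzymes from their group mean was 0.12 in control replicate 1 and -0.085 in control replicate 3, and 0.070 and -0.090 in FL-ApoE4 replicates 1 and 3. This spread within groups was of the same size as the median difference between them, 0.13.

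Summed over the 20 enzymes, reads were 0.122%, 0.119% and 0.111% of all reads in control replicates 1 to 3. The corresponding shares were 0.133%, 0.130% and 0.120% in FL-ApoE4 replicates 1 to 3. The lowest treated library lay below the highest control. At each replicate number the share was higher with FL-ApoE4, but the labels do not say that the numbers pair samples.

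Neighbouring parts of sterol and lipid metabolism were read for comparison. Each of the 5 lists held 12 genes, and limma called 0 genes of them with all libraries (background 0%). In the isoprenoid branch, whose enzymes attach or extend isoprenoids, 6 of 12 differences were positive and 6 negative, with a median of -0.012. The groups overlapped in all 12, where 11.1% of all genes tested stood apart on the higher side and 10.9% on the lower. Rabggta, a subunit of the Rab prenyltransferase, had 0.11 ± 0.080 and Fnta, a subunit shared by the farnesyl and geranylgeranyl transferases, 0.064 ± 0.060. On the lower side, Nus1, a subunit of the dolichol-forming transferase, had -0.077 ± 0.060 and Icmt, which methylates prenylated proteins, -0.080 ± 0.063.

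Among genes of SREBP1 and fatty acid synthesis, 9 of 11 past the filter had a positive log2 difference, with a median of 0.10. In 4 of the 11 all FL-ApoE4 libraries lay above all controls, against 11.1% of all genes tested. In 0 of the 11 all lay below, against 10.9%. Without control replicate 1, 7 of 11 were positive and the median was 0.046, where that of the 20 sterol enzymes was 0.17. Scd2, a stearoyl-CoA desaturase, was at 14549, 21682 and 23018 in control replicates 1 to 3 and at 29039, 29513 and 25381 in FL-ApoE4 replicates 1 to 3. Its lowest library was control replicate 1, and its log2 difference of 0.53 ± 0.17 (limma adjusted p = 0.247) became 0.32 without it, at which it rose (limma adjusted p = 0.0391). Acss2, which makes acetyl-CoA from acetate, had 0.31 ± 0.11 (limma adjusted p = 0.295). With all libraries, the negative members were Fasn, the fatty acid synthase, at -0.059 and Fads1, a desaturase, at -0.019. Srebf1, which encodes SREBP1, was at 5588, 6592 and 7030.2 in control replicates 1 to 3 and at 7579.9, 7822 and 7254 in FL-ApoE4 replicates 1 to 3. All treated values exceeded all controls, whereas those of Srebf2 overlapped. The log2 difference of Srebf1 was 0.24 ± 0.087 with all libraries and 0.15 without control replicate 1, its lowest library (limma adjusted p = 0.295 and 0.176). Per kb of transcript, Srebf2 exceeded Srebf1 by 2.08, 1.74 and 1.61 times in control replicates 1 to 3 and by 1.53, 1.59 and 1.58 times in FL-ApoE4 replicates 1 to 3, so that the ratio was lower in all treated libraries. This ratio was not tested.

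The other lists had medians closer to 0. In the machinery that degrades sterol-regulated proteins in the endoplasmic reticulum the median log2 difference was -0.0073 (5 of 12 positive), with Ube2j2, a ubiquitin-conjugating enzyme, at -0.10 ± 0.061, and with Erlin1 and Erlin2, membrane scaffolds of the same machinery, at 0.066 and 0.063. In other sterol-regulated genes it was 0.018 (6 of 11 positive), with Mylip, a ubiquitin ligase under control of the sterol receptor LXR, at 0.17 ± 0.064, Cyb5b, a cytochrome b5, at 0.090, Por, the electron donor of Cyp51 and Sqle, at -0.17 ± 0.053 and the transcription factor gene Sp1 at -0.12 ± 0.069. In sterol uptake, transfer and storage it was 0.0080 (7 of 12 positive), with the late endosomal carrier Stard3 at 0.11 ± 0.053, the lysosomal lipase Lipa at 0.084 and the sterol transfer genes Osbp and Osbpl9 at -0.076 and -0.082. Nceh1, a cholesterol ester hydrolase named here after its value was seen, fell by 0.29 on the log2 scale without control replicate 1 (limma adjusted p = 0.0351) and had -0.082 ± 0.16 with all libraries (limma adjusted p = 0.892).

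**Figure D4:**
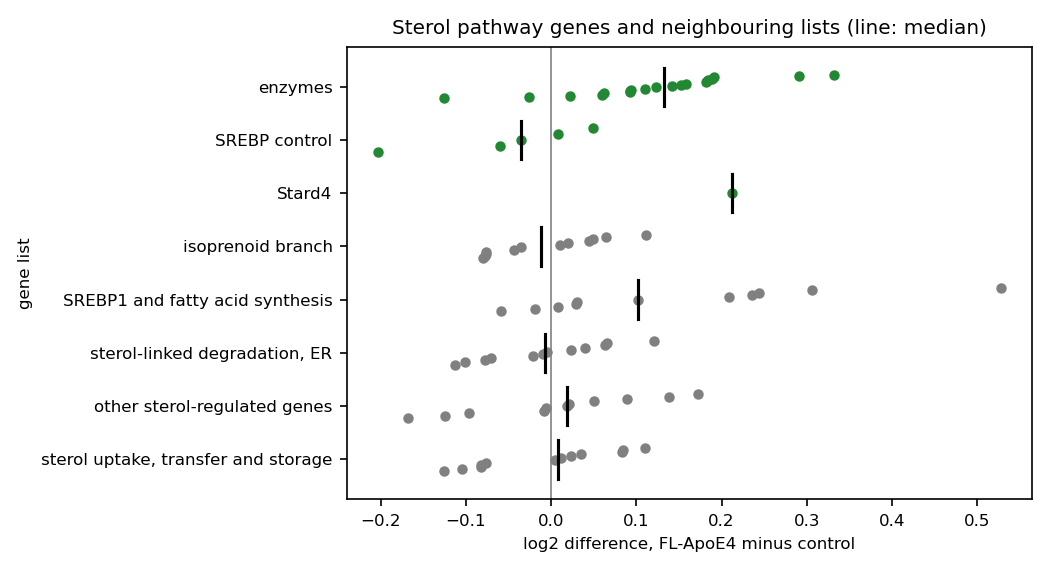
Log2 difference between FL-ApoE4 and control (horizontal axis) for each gene of the pathway (green; the enzymes, the genes of SREBP control and Stard4) and of 5 neighbouring lists (grey), with black lines at the medians. The median is 0.13 for the 20 enzymes and -0.035 for SREBP control.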

How the data were processed

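Total RNA of BV2 cells was made into libraries with a directional kit, per the labels' protocols. The submitters' processing notes name HISAT2 2.2.1, HTSeq, FastQC 0.11.8, DESeq2 1.30.1 and the build GRCm39 without settings. The authors deposited a normalised signal for each gene in each library. Dividing a column by its lowest value above 0 gave whole reads for 100% of values (tolerance 0.01). Log2 fold changes, p-values and scores (SE and Wald statistic) in the authors' deposited table served only to describe their calls.

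Since the values are normalised, log2(value + 1) was tested with limma 3.58.1 (R 4.3.3), with a trended variance, over the 14079 genes with a mean of at least 10. Tests had both tails, Benjamini-Hochberg adjustment ran over all 14079, and the threshold was 0.05. The pseudocount understates changes of low genes. With recovered reads, edgeR 4.0.16 (quasi-likelihood) called 0 genes and DESeq2 1.42.0 called 367. Counting alone gave coefficients of variation of 0.850% to 5.09% for the pathway genes.

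All 27 genes are named, and in each neighbouring list the genes of lowest p, up to 2 each way, of which 1 is not reported here. Genes and lists were chosen with earlier results of these data known. Lengths and exon overlaps came from GENCODE M21 and promoters from RefSeq, both of GRCm38, matched by symbol. The replicate numbers were not taken to pair samples. Alternatives were other pseudocounts, filters, scalings and variance models, the count tests and leaving out libraries.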

Additional observations from a re-analysis of the deposited data

How the results depend on the processing

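The numbers of genes called, the number of positive differences, the median and the log2 difference of each of the 26 genes were recomputed under 22 other settings. Of these, 1, leaving out control replicate 1 and FL-ApoE4 replicate 1 together, was chosen after seeing the data. Levels per kb, ratios, enzyme shares, library order, counts of groups apart and promoter counts were not recomputed. Of the 26 genes, 20 kept the direction of their log2 difference in every setting and 6 with differences near 0 did not. The number of pathway genes called was 0 with other pseudocounts, filters, scalings and variance models, and with edgeR and DESeq2 on 6 libraries. It was 6 with array quality weights, 2 with edgeR and 4 with DESeq2 without control replicate 1, and 8 without both libraries numbered 1, and it ranged from 0 to 2 when 1 library was left out at a time. Over all genes tested the number called was 1 when every gene with a mean above 0 entered, 1551 with array weights, 367 with DESeq2, 691 and 903 with edgeR and DESeq2 without control replicate 1, and 1767 without both, with a range of 0 to 651 when 1 library was left out. The median log2 difference of the 26 genes ranged from 0.054 (without control replicate 3) to 0.16 (edgeR without control replicate 1), and 19 to 21 genes were positive.

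Leaving out 1 library at a time gave log2 differences from -0.033 to 0.16 for Hmgcs1, -0.0038 to 0.14 for Tm7sf2, -0.051 to 0.0013 for Lbr, -0.0087 to 0.052 for Ebp, -0.0082 to 0.026 for Scap and -0.079 to 0.022 for Mbtps1. Without both libraries numbered 1 Ebp was at -0.0096, and without control replicate 1 Scap was at -0.0048 by edgeR and -0.0080 by DESeq2. The cause was not tested. With the replicate number as a block, limma called 0 pathway genes and 0 genes in all. Deviations of same-numbered libraries from their group means had correlations of 0.13, 0.068 and -0.026 across all genes tested, which are not independent replicates. The highest correlation was between different numbers, 0.16 for control replicate 3 and FL-ApoE4 replicate 2. The numbers were therefore not taken to pair samples. Across the 26 pathway genes the same-number correlations were 0.62, 0.19 and 0.57. There, each library correlated best with its own number except FL-ApoE4 replicate 2, at 0.26 with control replicate 3. The summed share of the enzymes was higher with FL-ApoE4 at each of the 3 numbers. With 3 libraries a group, many of the differences lay within the spread between libraries. Groups stood apart in 6 genes higher and 1 lower, against 11.1% and 10.9% of all genes tested. The spread was below counting error for Acat2 in both groups and for Ggps1 and Scap with FL-ApoE4.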
